A study of Oryza sativa with 45 samples.

Results

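The rice cytochrome P450 genes measured here were 27 genes from 12 families, each read by 1 probe set of the array. They were chosen by name: a probe set entered when its single annotated gene carries a symbol or synonym of the form CYP, family number, letter and gene number in the array annotation or the rice reference table, and the subfamilies CYP99A, CYP71Z, CYP76M and CYP707A were left out. These left-out subfamilies, most of them tied to rice phytoalexins (CYP707A degrades abscisic acid), accounted for 11 further genes. The reference table names 39 P450 genes, and the array holds 54922 probe sets, of which 24080 have 1 annotated gene. The names cover only P450s that received a symbol, so they are not the whole rice P450 complement.

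Cytochrome P450s are haem enzymes that use molecular oxygen and electrons from a reductase to oxidise small hydrophobic substrates, and most plant forms sit in the membrane of the endoplasmic reticulum. In rice they catalyse several steps in the synthesis and breakdown of brassinosteroids and gibberellins, hormones that set plant height and leaf angle, whereas the CYP74 enzymes of jasmonate synthesis rearrange a fatty acid hydroperoxide without needing oxygen or a reductase. Others make defence compounds, serotonin or wall components of pollen.

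All plants were *Oryza sativa* ssp. *japonica* cv. Nipponbare, and an array read the RNA of 10 whole seedlings pooled at 15 days of age. There were 3 such pools in each of 15 conditions. Line Ta carries 1 copy of OsICE1, a cold-response transcription factor, fused to a TAP tag under the constitutive maize ubiquitin promoter, together with hygromycin resistance. Line NSb is a negative segregant, a transgene-free descendant of another transformation event (Tb), and line C is the seed-derived control that never went through *in vitro* culture. The 3 lines were sampled in generation F6 under salinity (12 dS/m for 12 days) and without it, in generation F8 with a salt history (ancestors stressed in F6, seedlings themselves unstressed) and without one, and in generation F4 without salt. Each line is a single line, so an effect of the transgene, of its insertion site and of any other change carried by that line cannot be told apart.

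Values are RMA signals on the log2 scale as deposited, a difference of 1 being a 2-fold change. The medians of the arrays lay at 4.46 to 4.50 in F4, 4.14 to 4.22 in F6 and 4.53 to 4.58 in F8, and no test set a level against that of another generation. Arrays of 1 condition correlated at 0.975 to 0.991 over all probe sets, the lowest pair being in C of F6, where replicate 3 had the lowest mean correlation (0.978). The ICE1 probe set read 8.82 to 9.63 in Ta arrays and 4.37 to 6.30 in NSb and C arrays, and the hygromycin resistance probe set read 10.7 to 11.6 in Ta and 3.09 to 3.92 in NSb and C. Of 7 salt or drought response markers, 6 rose under salt in the mean of the lines, with a median effect of 1.91. Leaf markers (4 genes) and root markers (5 genes) were read in every condition, the leaf markers above the median of every array, although the root markers NAS1 and NAS2 lay under the array's median on 23 and 30 of the 45 arrays.

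Signals differed widely among the P450 probe sets, and a probe set's level was not set against another's. On all 45 arrays, 10 of the 27 genes read at or above the array's median and 4 read under it: CYP703A3, which acts in the pollen wall, CYP74A3, CYP87A3 and CYP701A6. The other 13 crossed the median. A signal under the median may be background, and no detection call was used. The spread between pools was ordinary, with a median SD of 0.13 for the P450 genes and 0.13 for all probe sets.

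The salt comparison asked how 12 days of salinity changed these genes in each line of F6. CYP71P1 and CYP701A8 rose in all 3 lines, while the P450s of brassinosteroid synthesis and inactivation were mostly lower under salt. A gene passed when its Benjamini-Hochberg adjusted p in limma, taken over all probe sets, was under 0.05. In Ta, 2 genes rose and 2 fell, where 6.26% of all probe sets rose and 4.24% fell. In NSb, 3 rose and 4 fell, against 9.34% and 6.09% of all probe sets, and in C, 2 rose and 3 fell, against 5.14% and 4.54%. With each array centred on its median, the lower calls became 8 in Ta, 6 in NSb and 5 in C, while the higher calls stayed at 2, 3 and 2. The shares of all probe sets after centring are not given, so the centred counts cannot be set against them. A fold of at least 3 was reached only by CYP701A8, in NSb and in C and not in Ta, where the shares of all probe sets were 0.699% in NSb, 0.422% in C and 0.468% in Ta. With 1 array left out, the lower calls numbered 4 without Ta replicate 1, 1 without Ta replicate 2 or Ta salt replicate 1, 2 without NSb replicate 1 or 2 or NSb salt replicate 1 or 2, 3 without Ta replicate 3, and 1 without C salt replicate 1 or 2. In whole seedlings, fewer cells of a type and less RNA per cell cannot be told apart.

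Over the 3 lines together, 5 genes rose and 12 fell, where 15.2% of all probe sets rose and 11.7% fell. With each array centred on its median, 4 rose and 14 fell, again without a share of all probe sets to set them against. The median of the mean salt effect was -0.12 over the 27 genes and -0.01 over all probe sets. In 15 genes the difference was below 0 in all 3 lines, and in 6 it was above 0 in all 3. Counted by line, 2 genes passed in all 3 lines, 3 in a pair of lines, 4 in 1 line and 18 in none. Neither these counts nor those by sign were made for all probe sets, so they describe the 27 genes only.

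**Figure D1:**
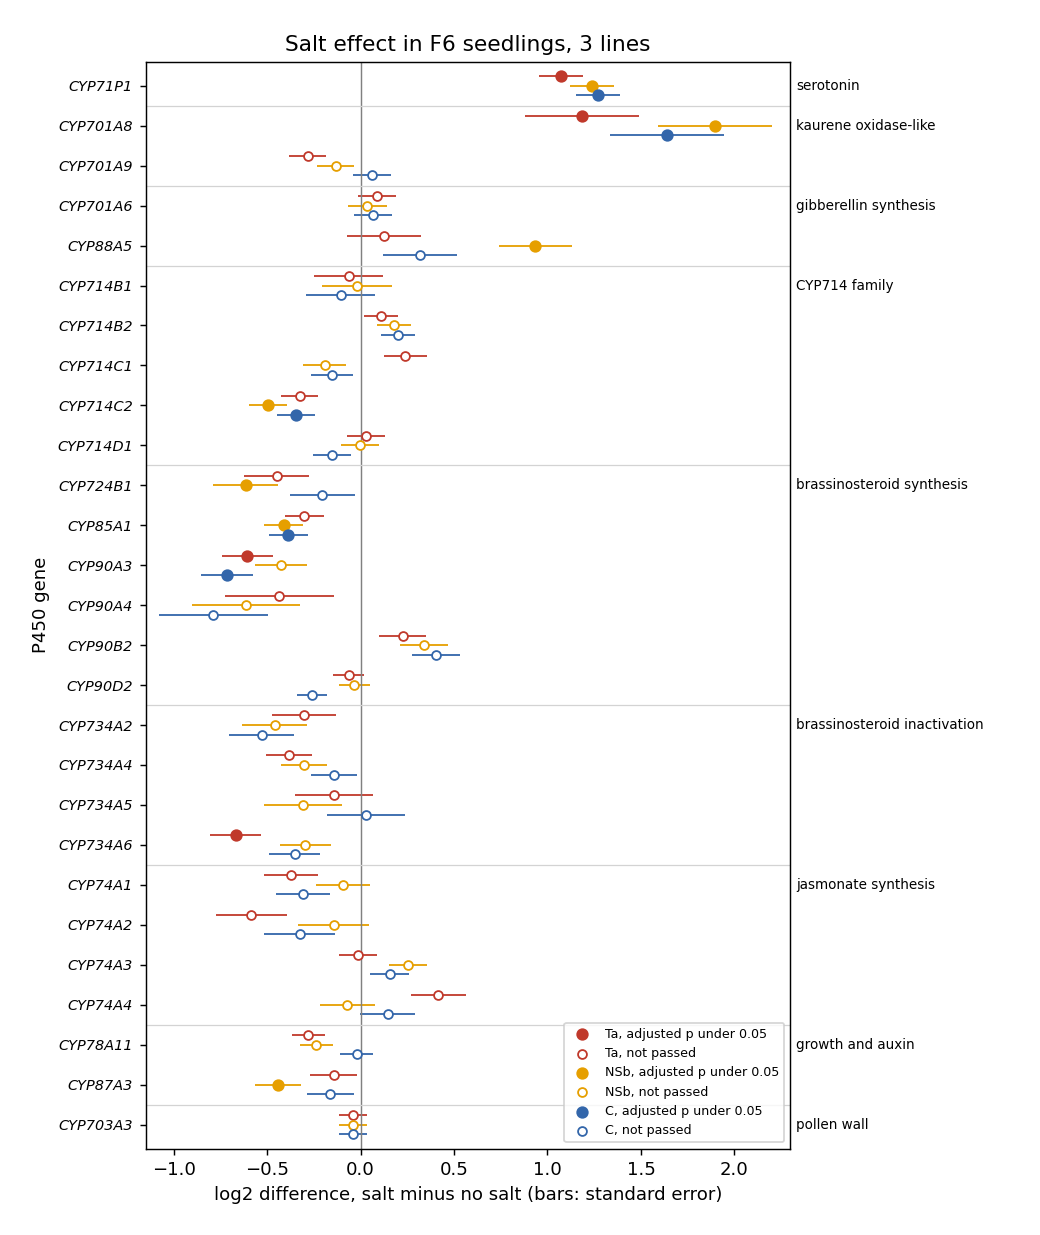
Salt effect of each of the 27 P450 genes in F6, as the log2 difference between salt and no salt (horizontal axis) with its standard error, in Ta (red), NSb (orange) and C (blue), 3 pools per condition; filled points have an adjusted p under 0.05. CYP71P1 and CYP701A8 lie to the right in all 3 lines, and 15 genes lie left of 0 in all 3, a count not made for all probe sets.

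CYP71P1, the tryptamine 5-hydroxylase that makes serotonin and whose loss gives the *Sekiguchi lesion* mutant, showed the clearest response. Its log2 values were 4.75, 5.07 and 5.10 in Ta under salt and 3.77, 3.86 and 4.08 in Ta without salt. They were 5.09, 5.38 and 5.47 in NSb under salt and 4.0, 4.06 and 4.17 in NSb without salt, and 5.28, 5.34 and 5.45 in C under salt and 4.02, 4.07 and 4.17 in C without salt. Every salt array was above every array without salt. The folds were 2.10 in Ta (log2 difference 1.07, SE 0.12, limma adjusted p = 2.37e-05), 2.36 in NSb (1.24, SE 0.12, adjusted p = 3.96e-06) and 2.42 in C (1.27, SE 0.12, adjusted p = 3.9e-06). All of these folds lie under the alternative minimum of 3, so that alternative ended each call. None was lost in any other alternative or with any array left out.

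CYP701A8 (KOL4) is a paralogue of the gibberellin enzyme *ent*-kaurene oxidase whose product acts on diterpenes of specialised metabolism, so that it stands closer to defence than its subfamily's name does. It read 6.35, 6.75 and 7.68 in Ta under salt and 5.62, 5.76 and 5.85 in Ta without salt. In NSb the values were 6.2, 7.0 and 7.11 under salt and 4.59, 5.0 and 5.03 without salt, and in C they were 6.48, 6.82 and 7.41 under salt and 5.06, 5.29 and 5.44 without salt. Groups did not overlap in any line, but the salt pools of a line spread more widely than the pools without salt. It rose 2.27-fold in Ta (1.18, SE 0.30, limma adjusted p = 0.0195), 3.73-fold in NSb (1.90, SE 0.30, adjusted p = 0.000486) and 3.12-fold in C (1.64, SE 0.30, adjusted p = 0.00231). The call in Ta was lost without Ta salt replicate 2 (0.81, adjusted p = 0.10), without Ta replicate 1 of the arrays without salt (adjusted p = 0.055) and without replicate 3 of the same arrays (adjusted p = 0.069). Its neighbour in the reference gene order, CYP701A9 (KOL5), had differences of -0.28 in Ta, -0.13 in NSb and 0.06 in C, none of which passed. CYP701A6 (KO2, the D35 gene), the *ent*-kaurene oxidase of gibberellin synthesis, with 1 gene between it and CYP701A8, had differences of 0.04 to 0.09 at signals of 1.47 to 2.0. The reference record of that gene also lists the name CYP701A19, so the probe set stands for both names.

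**Figure D2:**
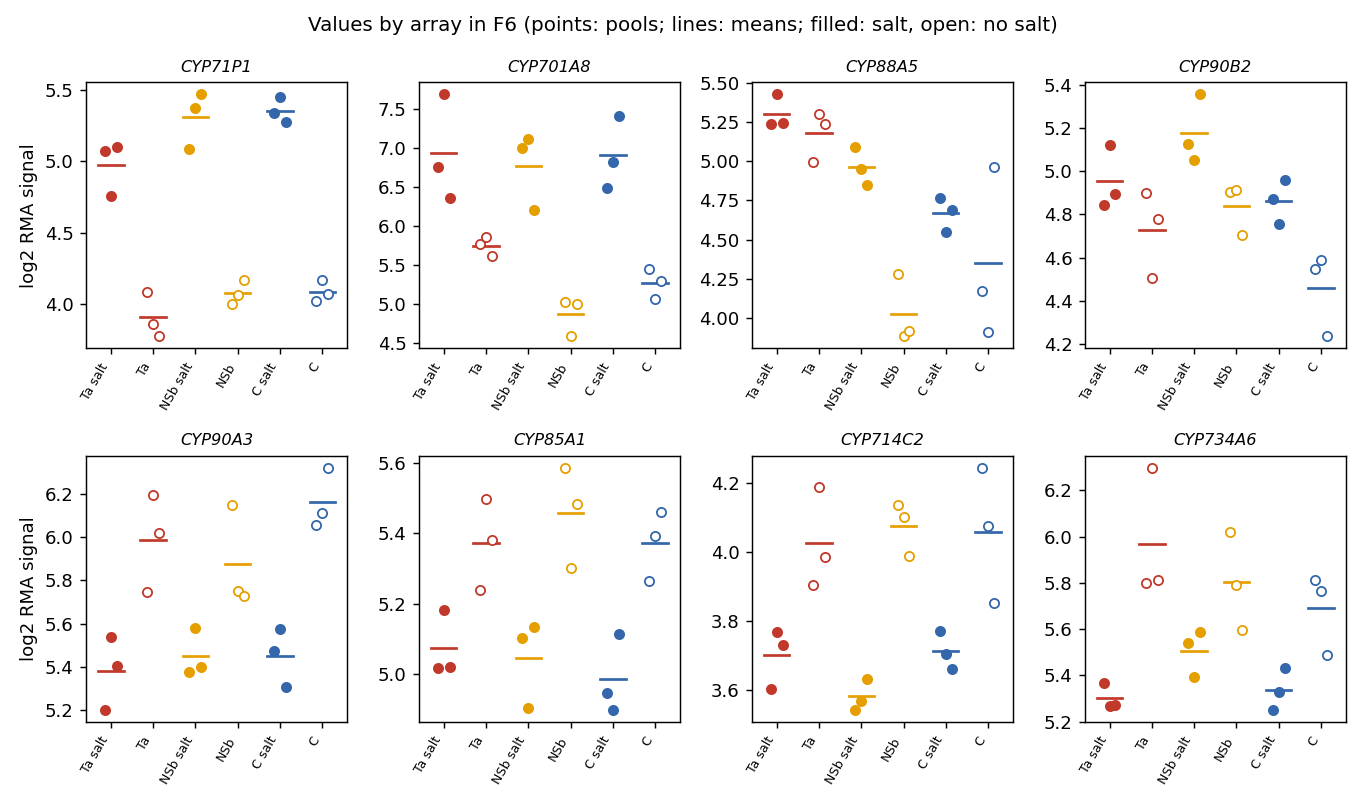
Log2 RMA signal (vertical axis) of 8 P450 genes on each F6 array, with salt (filled) left of no salt (open) for Ta, NSb and C; lines are means of 3 pools. CYP71P1 and CYP701A8 separate salt from no salt in each line, while CYP88A5 does so without overlap only in NSb.

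The gibberellin P450 after that step, CYP88A5 (*ent*-kaurenoic acid oxidase), rose in the mean of the lines (0.46, SE 0.11, limma adjusted p = 0.0062) and, by line, in NSb. In NSb it read 4.85 to 5.09 under salt and 3.89 to 4.28 without salt, a difference of 0.94 (SE 0.20, adjusted p = 0.00398). In Ta the values were 5.24 to 5.43 under salt and 4.99 to 5.30 without salt, and in C they were 4.55 to 4.76 under salt and 3.91 to 4.96 without salt, so the groups overlapped in both. The highest C array without salt was replicate 3, and without it CYP88A5 passed in C as well. The difference between the salt effects was -0.81 for Ta minus NSb (SE 0.28, adjusted p = 0.66) and 0.62 for NSb minus C (SE 0.28, adjusted p = 0.62).

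Several CYP714 enzymes modify gibberellins in rice: CYP714D1 (EUI1) inactivates them by epoxidation, and CYP714B1 and CYP714B2 are gibberellin 13-oxidases. CYP714B2 rose slightly in the mean of the lines (0.16, SE 0.05, limma adjusted p = 0.0289), a call that 9 of the 18 single-array omissions ended, as did centring on medians (adjusted p = 0.12). CYP714C2 fell in the mean (-0.39, SE 0.06, adjusted p = 9.43e-05). It lay under the array's median on 39 of the 45 arrays, and a filter on low values removed it. Under salt its values lay at 3.60 to 3.77 in Ta, 3.54 to 3.63 in NSb and 3.66 to 3.77 in C, and without salt at 3.90 to 4.19 in Ta, 3.99 to 4.14 in NSb and 3.85 to 4.24 in C, with no overlap in any line. By line it passed in NSb (-0.49, adjusted p = 0.00319) and in C (-0.34, adjusted p = 0.0404), and was -0.33 in Ta (adjusted p = 0.0504). The call in C was lost without any 1 of 5 of its 6 arrays, up to an adjusted p of 0.19. It was also lost with an intensity trend and robust variances (adjusted p = 0.054) and with only the 2 groups compared (0.22). CYP714C1, adjacent to CYP714C2 in the reference, had differences of 0.24 in Ta, -0.19 in NSb and -0.15 in C, and CYP714B1 and CYP714D1 of -0.15 to 0.03. None of these passed.

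Of the 6 genes of brassinosteroid synthesis, 4 fell in the mean of the lines, 1 rose and 1 did not pass. Of all probe sets, 15.2% rose and 11.7% fell in that mean. CYP90A3 (CPD1) fell by 0.58 (SE 0.08, limma adjusted p = 4.27e-05), CYP90A4 (CPD2) by 0.61 (SE 0.17, adjusted p = 0.0118), CYP724B1 (D11) by 0.42 (SE 0.10, adjusted p = 0.00468) and CYP85A1 (DWARF), the C-6 oxidase late in the pathway, by 0.37 (SE 0.06, adjusted p = 0.000211). CYP90A4 lay under the array's median on 35 of the 45 arrays and CYP724B1 on 34, where a signal may be background. A filter on low values removed both. CYP90B2 (DWARF4), which hydroxylates the side chain early in the pathway, rose by 0.32 (SE 0.07, adjusted p = 0.00339). CYP90D2 (D2) differed by -0.12 (adjusted p = 0.075). The family CYP90 thus held members that moved in both directions.

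By line, CYP90A3 passed in Ta and in C. It read 5.20 to 5.54 in Ta under salt and 5.75 to 6.19 in Ta without salt (-0.60, SE 0.14, limma adjusted p = 0.00995), and 5.31 to 5.57 in C under salt and 6.06 to 6.32 in C without salt (-0.71, SE 0.14, adjusted p = 0.00328). The NSb arrays did not overlap either, at 5.37 to 5.58 under salt and 5.73 to 6.15 without salt (-0.42, adjusted p = 0.0505). The call in Ta was lost without Ta replicate 2 (adjusted p = 0.056) or Ta salt replicate 1 (adjusted p = 0.055). CYP90A4, a close paralogue for which cross-hybridisation was not tested, varied more between pools and passed in no single line (-0.43 in Ta, -0.62 in NSb and -0.79 in C).

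CYP85A1 read 5.01 to 5.18 in Ta under salt and 5.24 to 5.50 in Ta without salt, 4.90 to 5.13 in NSb under salt and 5.30 to 5.59 in NSb without salt, and 4.90 to 5.11 in C under salt and 5.26 to 5.46 in C without salt. Salt arrays were below the arrays without salt in each line, and the gene passed in NSb (-0.41, limma adjusted p = 0.0127) and C (-0.39, adjusted p = 0.0255) but not in Ta (-0.30, adjusted p = 0.0799). Leaving out NSb replicate 1 or NSb salt replicate 2 ended the call in NSb (adjusted p = 0.056 and 0.070), and leaving out any 1 of 4 of the 6 C arrays ended that in C (up to 0.099). With only the 2 groups compared in the fit, both calls were lost (adjusted p = 0.053 in NSb and 0.13 in C). CYP724B1 passed only in NSb (-0.61, SE 0.17, adjusted p = 0.025), and 5 of the 6 NSb arrays, left out singly, ended that call (up to 0.11). The same call was lost with only the 2 groups compared (adjusted p = 0.094). CYP90B2 had differences of 0.22 in Ta, 0.34 in NSb and 0.40 in C, none of which passed.

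The CYP734A enzymes inactivate brassinosteroids. Of 4 genes, 3 fell in the mean of the lines: CYP734A6 by 0.44 (SE 0.08, limma adjusted p = 0.000503), CYP734A2 by 0.43 (SE 0.10, adjusted p = 0.00402) and CYP734A4 by 0.28 (SE 0.07, adjusted p = 0.00783). In that mean 11.7% of all probe sets fell. CYP734A5 had a mean difference of -0.14 (adjusted p = 0.45). CYP734A6 passed in Ta alone, with 5.27 to 5.37 under salt and 5.80 to 6.30 without salt (-0.67, SE 0.14, adjusted p = 0.00466). It was also lower without overlap in NSb (-0.30, adjusted p = 0.17) and in C (-0.35, adjusted p = 0.13). The difference between those salt effects did not pass, so the lines are not shown to differ.

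The CYP74A genes encode allene oxide synthases, which commit a fatty acid hydroperoxide to jasmonate. None passed in a single line. In the mean of the lines CYP74A1 (AOS1) fell by 0.26 (SE 0.08, limma adjusted p = 0.0323) and CYP74A2 (AOS2) by 0.35 (SE 0.11, adjusted p = 0.0255), both calls of limited hold: 11 of the 18 F6 arrays, left out singly, ended the first (up to 0.070) and 5 ended the second (up to 0.056). CYP74A3 and CYP74A4, adjacent in the reference, differed by 0.13 (adjusted p = 0.12) and 0.16 (adjusted p = 0.18). CYP78A11 (PLASTOCHRON1), which sets the pace of leaf formation, fell by 0.18 (SE 0.05, adjusted p = 0.0148), and CYP87A3, an auxin-responsive gene, fell by 0.25 (SE 0.07, adjusted p = 0.0168) at signals under the array's median. By line CYP87A3 passed in NSb (-0.44, adjusted p = 0.0248), a call lost without NSb replicate 2 (-0.27, adjusted p = 0.11) and without NSb salt replicates 1 (0.093) or 2 (0.054). That call was also lost with only the 2 groups compared (adjusted p = 0.11). CYP703A3 had differences of -0.04 in each line.

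Markers of leaf and root were summed on the log2 scale beside these results. The leaf sum was 35.2 to 35.7 in Ta under salt and 35.8 to 36.1 in Ta without salt, 35.5 to 35.8 in NSb under salt and 35.8 to 36.3 in NSb without salt, and 36.0 to 36.5 in C under salt and 35.7 to 36.9 in C without salt. Of the 4 leaf markers, 1 fell in the mean of the lines (RCA, Rubisco activase, by 0.26) and none rose. The root sum was 32.5 to 34.9 in Ta under salt and 32.5 to 33.4 in Ta without salt, 33.0 to 34.8 in NSb under salt and 33.6 to 34.3 in NSb without salt, and 34.1 to 34.4 in C under salt and 31.9 to 34.2 in C without salt. Of the 5 root markers, 2 rose (LSI1 by 0.30 and NAS1 by 0.77) and 1 fell (CASP1, of the Casparian strip, by 0.72). The part of these markers in the P450 results was not tested.

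Other genes of these and related pathways were counted in the mean of the lines, where 15.2% of all probe sets rose and 11.7% fell. Of 8 further brassinosteroid genes, mostly of signalling, 1 fell in the mean of the lines (the receptor gene BRI1, by 0.21, limma adjusted p = 0.00794) and none rose, with a median of -0.11. Of 7 further gibberellin genes, CPS1 rose (0.23, adjusted p = 0.0388) while KS1 (-0.52, adjusted p = 0.000245) and GAMYB (-0.37, adjusted p = 0.00303) fell; CPS1 and KS1 form the diterpene skeleton that *ent*-kaurene oxidase then oxidises. Of 4 strigolactone genes, 2 rose (the signalling genes D3 by 0.57 and D14 by 0.45) and none fell. Cytokinin genes gave 3 higher and 1 lower of 14 (CKX4 0.47, RR4 0.44, CKX5 0.28 and CKX11 -0.34), carotenoid genes 2 lower of 5 (PSY2 -0.65 and PSY3 -0.36, both phytoene synthases), and phenylpropanoid and flavonoid genes 8 lower and none higher of 11, with CHS1, chalcone synthase, falling by 0.99 (adjusted p = 5.06e-08). None of the names on the list of P450 electron donors matched a probe set.

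The 3 lines were then asked whether they answered salt differently. None of the 27 P450 genes passed for Ta minus C (0.00364% of all probe sets passed), NSb minus C (0.00182%) or Ta minus NSb (0%), in limma with adjustment over all probe sets. At an unadjusted p under 0.05 there were 2, 1 and 3 genes, which were CYP701A9 and CYP714C1, then CYP88A5, then CYP74A4, CYP88A5 and CYP714C1. All probe sets were not counted at that unadjusted threshold, here or in the comparisons below, so the percentages given are for adjusted p only. The differences ranged from -0.46 to 0.39 for Ta minus C, from -0.41 to 0.62 for NSb minus C and from -0.81 to 0.49 for Ta minus NSb, with a median SE of 0.18. Differences of this size could have been missed, and the lines are not shown to act alike.

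Between lines without salt, the P450 genes rarely differed. In F4 none passed in Ta minus C (0.164% of all probe sets), NSb minus C (1.06%) or Ta minus NSb (0.071%). At an unadjusted p under 0.05 in limma there were 5, 5 and 1 genes, a threshold at which all probe sets were not counted. CYP85A1 came nearest, with 6.39, 6.59 and 6.71 in Ta and 6.43, 6.46 and 6.56 in NSb against 5.84, 6.05 and 6.14 in C. Both lines lay above C without overlap, by 0.55 (SE 0.11, adjusted p = 0.10) and 0.48 (SE 0.11, adjusted p = 0.095), and the C arrays are shared by both comparisons. Likewise CYP734A4 had 5.79 to 6.01 in Ta and 5.88 to 5.97 in NSb against 6.21 to 6.25 in C (-0.34, adjusted p = 0.14, and -0.30, adjusted p = 0.12).

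In F6 without salt none passed in Ta minus C (0.0455%), NSb minus C (0.031%) or Ta minus NSb (0.0401%), with 4, 3 and 2 at an unadjusted p under 0.05 in limma. The widest differences were those of CYP88A5, whose values of 4.99, 5.24 and 5.30 in Ta stood against 3.89, 3.92 and 4.28 in NSb (1.15, SE 0.24, adjusted p = 0.24) and 3.91, 4.17 and 4.96 in C (0.83, SE 0.24, adjusted p = 0.47), and of CYP701A8 (0.87 for Ta minus NSb, SE 0.15, adjusted p = 0.16). Without C replicate 3, CYP88A5 passed in 1 of these line comparisons. Under salt none passed in Ta minus C (0.395%), NSb minus C (0.0801%) or Ta minus NSb (0.135%), with 5, 1 and 1 at an unadjusted p under 0.05. There CYP88A5 was 0.63 higher in Ta than in C (adjusted p = 0.20) and CYP71P1 0.38 lower (adjusted p = 0.20), both without overlap.

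In F8, CYP701A9 was lower in both lines that had gone through *in vitro* culture. Without salt history it read 3.55, 3.76 and 4.04 in Ta and 3.78, 3.78 and 3.94 in NSb, against 4.44, 4.54 and 4.74 in C. With salt history it read 3.47, 3.88 and 3.97 in Ta and 3.44, 3.50 and 3.53 in NSb, against 4.34, 4.57 and 4.65 in C. No Ta or NSb array of F8 reached any C array. Without history the difference passed in Ta minus C (-0.79, SE 0.13, limma adjusted p = 0.0441) and not in NSb minus C (-0.74, SE 0.13, adjusted p = 0.24), and with history it passed in Ta minus C (-0.75, SE 0.14, adjusted p = 0.0183) and in NSb minus C (-1.03, SE 0.14, adjusted p = 0.0045). Comparisons with C of the same condition share its arrays.

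CYP701A9 was the 1 P450 gene that passed in these comparisons. Of all probe sets, 0.508% passed without history in Ta minus C, 0.0419% in NSb minus C and 0.319% in Ta minus NSb, and 0.701%, 0.1% and 0.457% passed with history. The P450 genes at an unadjusted p under 0.05 numbered 4, 4 and 3 without history and 4, 5 and 3 with it, and none passed in Ta minus NSb in either. The call without history was lost with any 1 of 5 of the 6 arrays left out (up to an adjusted p of 0.15), and the call in Ta with history was lost without C replicate 1 (0.077), C replicate 3 (0.094) or Ta replicate 2 (0.090), whereas the call in NSb with history was kept in each omission. With only the 2 groups compared in the fit, the calls in Ta were also lost, without history (adjusted p = 0.11) and with it (0.21), and that in NSb was kept (0.041). The signals of all Ta and NSb arrays in F8 lay under the array medians. So did those of C replicates 2 and 3 without history and of C replicate 2 with it. Over all conditions CYP701A9 lay under the median on 42 of the 45 arrays, where a signal may be background.

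In earlier generations the same gene did not separate the lines. In F4 it read 3.79, 3.79 and 3.79 in Ta and 3.55, 3.85 and 4.23 in NSb, against 3.51, 3.79 and 3.79 in C. Ta replicates 2 and 3 and C replicates 1 and 3 of F4 held the identical value 3.7882, for a reason that was not tested. In F6 without salt it lay at 3.91 to 4.10 in Ta and 3.89 to 3.94 in NSb, against 3.76 to 4.04 in C. The change of the line difference between F4 and F8 passed for Ta minus C (-0.89, SE 0.19, limma adjusted p = 0.0362, 0.55% of all probe sets passing) and for NSb minus C (-0.92, SE 0.19, adjusted p = 0.0398, 0.288% passing). Of the 12 arrays behind each change, 9 ended the call in Ta when left out singly (up to an adjusted p of 0.11) and 10 ended that in NSb (up to 0.12).

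CYP714D1 (EUI1) was the other gene whose line difference changed between F4 and F8. It read 5.45, 5.53 and 5.64 in Ta of F4 and 5.04, 5.26 and 5.33 in NSb, against 4.83, 4.83 and 5.31 in C. In F8 it read 5.19, 5.29 and 5.32 in Ta and 4.80, 5.41 and 5.45 in NSb, against 5.49, 5.60 and 5.91 in C. The difference between Ta and C was 0.55 in F4 (limma adjusted p = 0.19) and -0.40 in F8 without history (adjusted p = 0.51), with no overlap in either. The change passed in Ta (-0.95, SE 0.21, limma adjusted p = 0.0389) and not in NSb (-0.67, SE 0.21, adjusted p = 0.25), and 10 of the 12 single-array omissions ended the call in Ta (up to 0.13). In F8 with history the lines overlapped, at 5.32, 5.46 and 5.54 in Ta against 5.53, 5.62 and 5.70 in C.

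**Figure D3:**
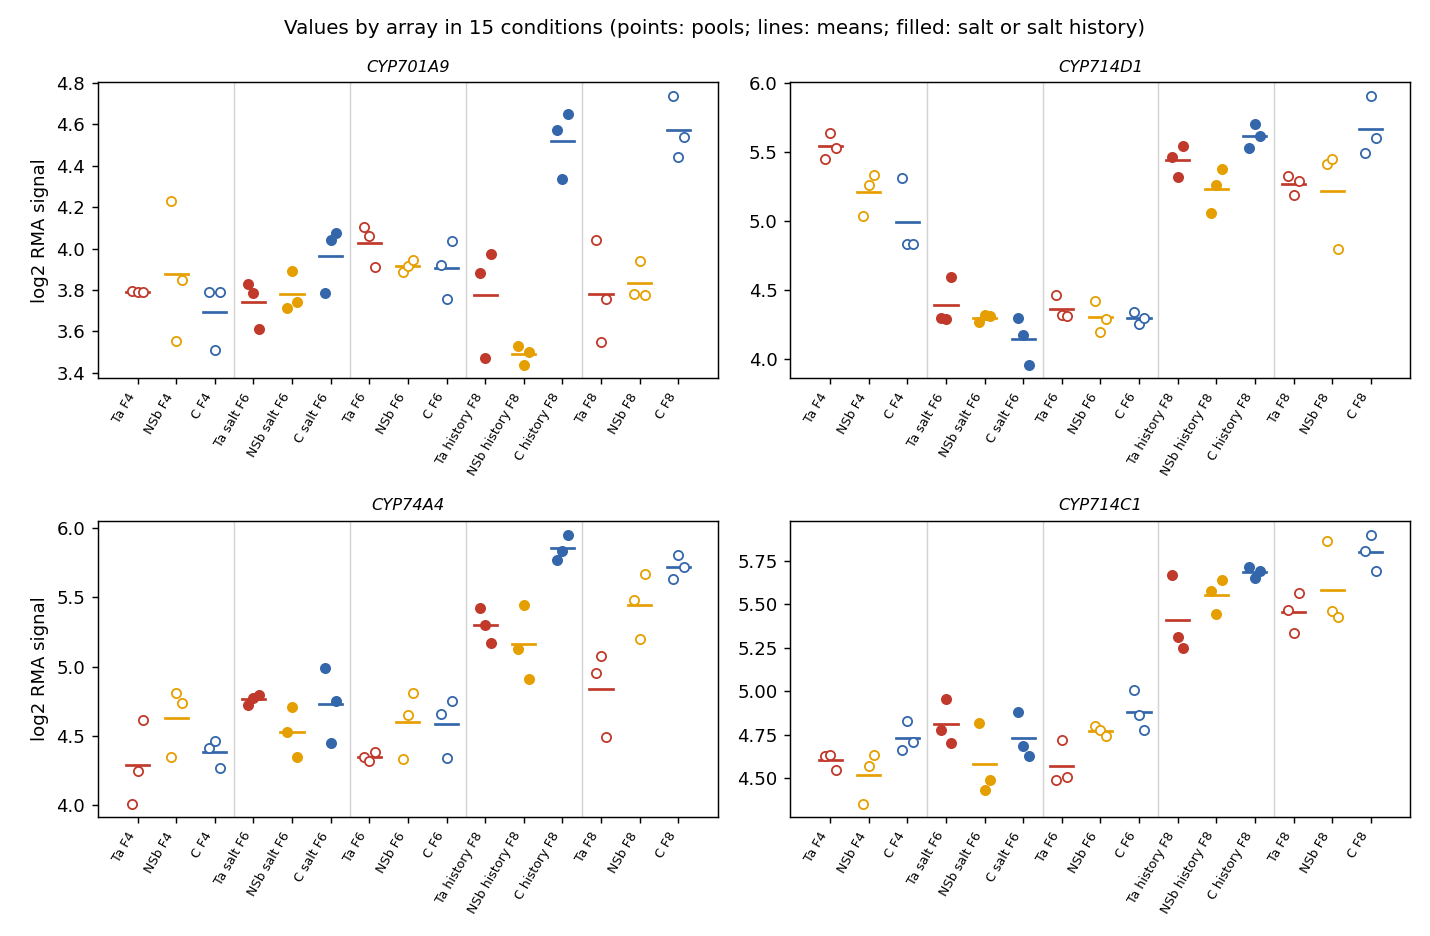
Log2 RMA signal (vertical axis) of CYP701A9, CYP714D1, CYP74A4 and CYP714C1 on each array of the 15 conditions, for Ta (red), NSb (orange) and C (blue), with salt or salt history filled; lines are means of 3 pools, and levels are comparable within a generation only. CYP701A9 in F8 lies at 4.34 or higher in C and at 4.04 or lower in Ta and NSb.

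Averaged over F4, F6 and F8 without salt or history, 2 P450 genes were lower in Ta than in C (1.49% of all probe sets passed) and none differed between NSb and C (0.563% passed), where 7 and 4 genes had an unadjusted p under 0.05 in limma. CYP714C1 read 4.54, 4.63 and 4.63 in Ta of F4 against 4.66, 4.71 and 4.83 in C. The F6 values were 4.49, 4.51 and 4.72 in Ta against 4.77, 4.86 and 5.01 in C, and those of F8 were 5.34, 5.47 and 5.57 in Ta against 5.69, 5.81 and 5.90 in C. Without salt or history the lines did not overlap in any generation, although each difference was small (-0.13, -0.31 and -0.34). The mean was -0.26 (SE 0.06, limma adjusted p = 0.033). Leaving out any 1 of 13 of the 18 arrays of Ta and C ended the call (up to 0.078). Under salt in F6 the lines overlapped, at 4.70 to 4.96 in Ta and 4.63 to 4.88 in C. They also overlapped in F8 with history, at 5.25 to 5.67 in Ta and 5.65 to 5.72 in C.

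CYP74A4 (AOS4) had a mean difference of -0.40 (SE 0.10, limma adjusted p = 0.0407), most of it from F8. It read 4.49, 4.95 and 5.08 in Ta of F8 and 5.20, 5.48 and 5.67 in NSb, against 5.63, 5.72 and 5.81 in C. In F4 the values were 4.01, 4.25 and 4.61 in Ta against 4.27, 4.41 and 4.46 in C, and in F6 4.32, 4.35 and 4.39 in Ta against 4.34, 4.66 and 4.75 in C, with overlap in both. Within F8 the difference for Ta minus C was -0.88 (SE 0.17, adjusted p = 0.066), and with history it was -0.55 in Ta (adjusted p = 0.17) and -0.69 in NSb (adjusted p = 0.14). The mean call was lost without any 1 of 15 of the 18 arrays (up to 0.093). Under salt in F6, which that mean leaves out, CYP74A4 had group means of 4.77 in Ta and 4.73 in C.

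The root marker sum differed between Ta and C without overlap in F4 and in F8 without history, and no association with the P450 values was computed. In F4 it was 36.2 to 37.4 in Ta and 34.9 to 36.0 in NSb, against 35.1 to 35.4 in C. In F6 without salt it was 32.5 to 33.4 in Ta and 33.6 to 34.3 in NSb, against 31.9 to 34.2 in C, which overlapped both. In F8 without history it was 33.4 to 34.1 in Ta and 34.6 to 35.2 in NSb, against 35.1 to 35.4 in C. With history the sums were 34.9 to 35.4 in Ta and 34.3 to 35.2 in NSb, against 34.9 to 35.5 in C, overlapping between the lines. The leaf sum in F8 without history was 35.8 to 36.1 in Ta and 35.6 to 36.2 in NSb, against 35.2 to 36.3 in C. With history it was 35.2 to 36.4 in Ta and 36.2 to 36.7 in NSb, against 35.6 to 36.0 in C, so NSb lay above C without overlap. The part of root and leaf markers in the CYP701A9, CYP714D1, CYP714C1 and CYP74A4 values was not tested.

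**Figure D4:**
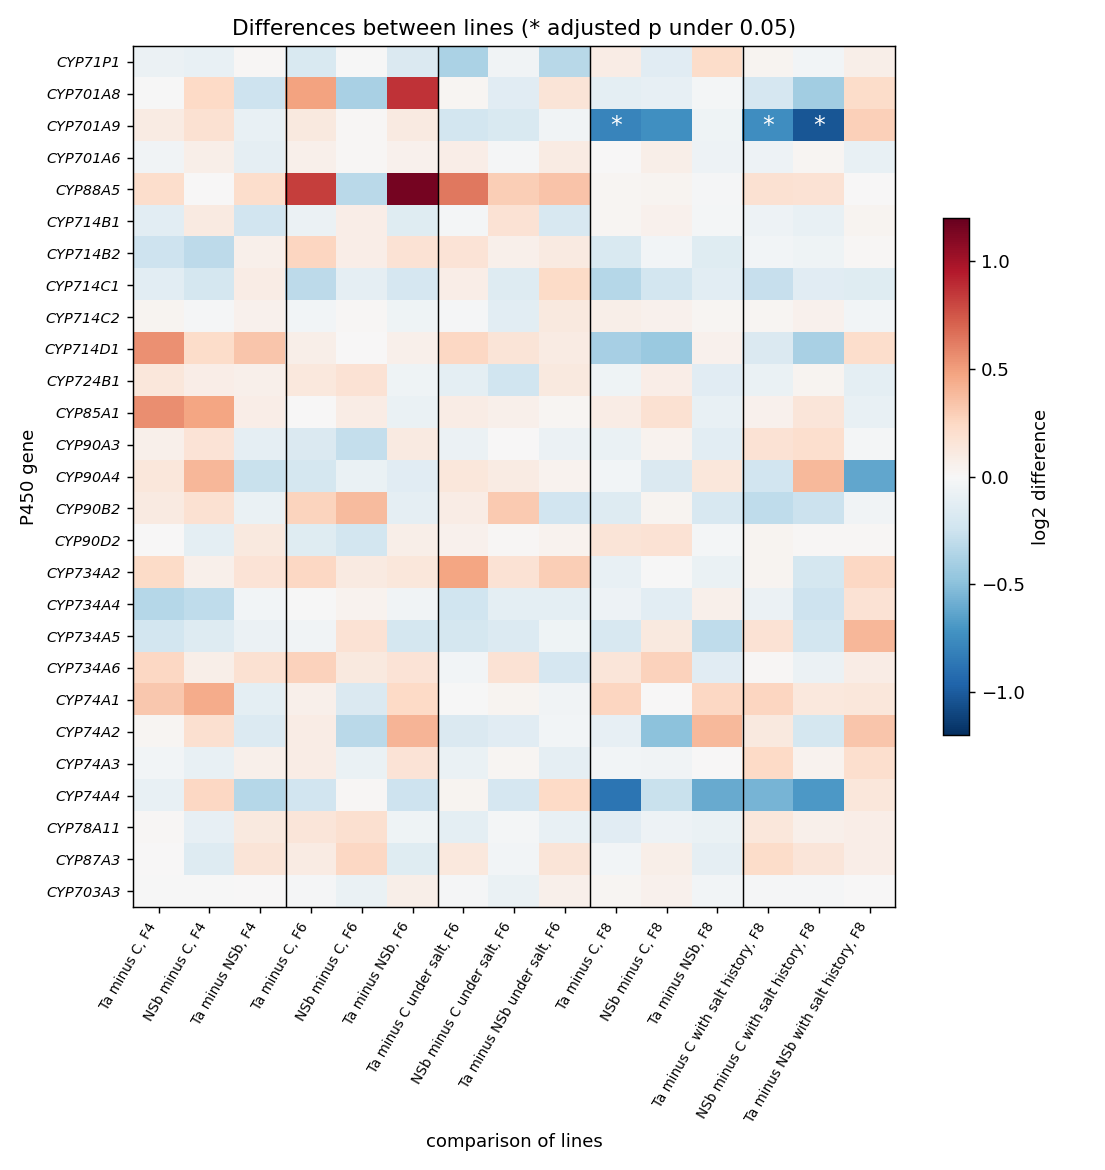
Log2 difference (colour) between lines for each P450 gene (rows) in 15 comparisons (columns), with blocks for F4, F6, F6 under salt, F8 and F8 with salt history; red is higher in the line named first and stars have an adjusted p under 0.05. The 3 stars all lie in the row of CYP701A9, in F8.

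Salt history asked whether salinity met by ancestors in F6 left a trace in unstressed F8 seedlings. None of the 27 genes passed in Ta (0.031% of all probe sets passed), NSb (0.00364%) or C (0%), and 3, 4 and 0 genes had an unadjusted p under 0.05 in limma. CYP71P1 and CYP701A8, which rose under salt itself, gave these values in Ta: CYP71P1 read 2.87 to 3.33 in Ta with history and 2.97 to 3.47 in Ta without it, and CYP701A8 read 4.98 to 6.04 in Ta with history and 5.39 to 5.59 in Ta without it. CYP90A4 read 3.42 to 3.98 in Ta with history against 4.05 to 4.09 in Ta without it (-0.39, SE 0.17, adjusted p = 0.66), and 4.23 to 4.44 in NSb with history against 3.65 to 4.14 in NSb without it (0.36, SE 0.17, adjusted p = 0.74). CYP734A5 had differences of 0.38 in Ta (adjusted p = 0.52) and -0.32 in NSb (adjusted p = 0.68). Across the 27 genes the history differences ranged from -0.39 to 0.46 in Ta, from -0.34 to 0.36 in NSb and from -0.20 to 0.16 in C.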

How the data were processed

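Gene expression was measured on 45 Affymetrix RUSGene 1.1 ST arrays, 3 pools for each of 15 conditions taken from the sample titles. RMA and Affymetrix Expression Console are the tools in the submitters' processing notes (versions not given in the sources used here), and the authors deposited log2 values for 54922 probe sets, which were used as they stand. Of these, 4714 repeat the values of an earlier probe set. Gene names came from the array's annotation and a rice reference table, whose assembly is not that of the array, so only names and gene order were taken from it. The ICE1 and hygromycin probe sets were identified through the study's probe annotation.

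Groups were compared with limma 3.58.1 in R 4.3.3 (tables were read with data.table, version 1.17.8), with group means, no covariates, moderated variances and 2-sided tests. The 18 arrays of F6 were fitted for salt and for lines under salt, and the 18 arrays of F8 for history and for lines with history. Lines without salt or history were fitted on the 9 such arrays of a generation, and across generations on the 27 such arrays. P-values were adjusted by Benjamini-Hochberg over all probe sets and a gene passed under 0.05 with no fold minimum. Plots were drawn with matplotlib 3.10.9 and pandas 2.3.3 (numpy 2.4.6) under Python 3.11.15. The fits were tested on simulated data. Arrays give no depth, and their number limits the precision. P-values measure the spread between pools, which the titles call biological replicates.

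Every P450 gene of the rule is named. Values of every array are given for genes that passed for salt in all lines, for a difference between salt effects, or for a line or history comparison, and up to 4 genes of a pathway list are named by smallest adjusted p. The P450 genes, pathway lists and markers were chosen with earlier results of these data known. From the lists 3 names were left out because their symbols matched unrelated genes.

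Alternatives were a fold of at least 3, a filter at a log2 value of 4.39 in at least 3 arrays, the 10% of probe sets with the highest SD, arrays centred on medians, an intensity trend with robust variances, all 45 arrays in 1 fit, only the 2 groups compared, the replicate number as a block, identical probe sets counted once and each array left out. Arrays with the same replicate number did not deviate together: in none of 21 comparisons were all correlations of their deviations over 0.1 (range -0.16 to 0.25). No value column was left unused.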

Additional observations from a re-analysis of the deposited data

Results flagged for a closer look

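Some line or history differences changed direction or size between conditions. The difference between Ta and C in CYP701A9 was 0.89 lower in F8 than in F4 on the log2 scale (-0.89), and that between NSb and C was 0.92 lower (-0.92); both changes passed in limma, and the C arrays are shared. CYP714D1 was above C in Ta of F4 (0.55) and below it in Ta of F8 without history (-0.40), a change of -0.95 that passed. Most single-array omissions ended each of these calls.

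In CYP90A4 the history groups did not overlap in either transformed lineage and moved in opposite directions, with -0.39 in Ta and 0.36 in NSb. CYP714B2 was lower in Ta than in C in F4 (-0.25), higher in F6 (0.25) and lower in F8 (-0.18), without overlap in any of the 3 generations. Both genes were picked from all P450 genes for such opposite moves, and non-overlap was not counted for all probe sets. None of these single differences passed, with a limma adjusted p of 0.42 in F4 and 0.60 in F6 for CYP714B2. The differences between these effects in CYP90A4 and CYP714B2 were not tested. In CYP90A4 and CYP714B2 the separation of these groups of 3 pools was not examined for single outlying arrays.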

How the results depend on the processing

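Of the member calls repeated under other settings, 258 of 271 kept direction and threshold and 13 were lost, and with 1 array left out 378 of 492 kept both and 114 were lost. No direction was reversed. The 271 leave out the fold of at least 3, which ended most calls, and any call whose gene a filter removed. The low-value filter in this way took CYP87A3, CYP90A4, CYP714C2 and CYP724B1 from the lower calls in the mean. Counts of P450 genes that moved by over 1.5 times were as follows, and smaller moves are left out. With a fold of at least 3, salt gave 0 higher and 0 lower in Ta, 1 and 0 in NSb, 1 and 0 in C and 0 and 0 in the mean, and the line counts of F8, with history, averaged and changed between F4 and F8 were 0. The low-value filter gave 6 lower in Ta and 2 lower in NSb, and line counts of 1 in F4 (CYP85A1) and 2 in F8. The 10% filter, which tested at most 4 of the genes, gave 0 lower in Ta, NSb and C, 3 higher and 1 lower in the mean, and 0 for the lines in F8, with history, averaged and for the change. Centring gave 8 lower in Ta and 5 in C. All 45 arrays in 1 fit gave 5 lower in Ta, 6 in C, and 2, 1 and 2 for the lines in F4, F6 and F8 and 1 under salt. Only the 2 groups compared gave 4 lower in Ta, 1 in NSb, 1 in C, and line counts of 1 in F6 and 0 in F8. Identical probe sets counted once gave 2 for the lines in F8. The causes were not tested, apart from the fewer genes a filter leaves.

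The replicate number as a block gave 4 lower in Ta, adding CYP78A11 and CYP734A4, and 0 for the lines in F8, where the call of CYP701A9 in Ta minus C was lost (adjusted p = 0.085). It kept the other 40 member calls and changed no other count.

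With 1 array left out, salt counts ranged from 1 to 2 higher and 1 to 4 lower in Ta, 3 to 4 and 2 to 4 in NSb, 2 to 3 and 1 to 2 in C, and 4 to 6 and 10 to 12 in the mean. Line counts ranged from 0 to 1 in F6 and in F8, from 0 to 2 averaged and for the change, stayed at 1 with history, and were 0 to 0 in F4, under salt, for history and for differences between salt effects.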

Other observations

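Relative to the median of its array, CYP701A8 was further from its F4 level in later generations than nearly all probe sets. Without salt or history its level in F6 minus that in F4 was 3.29 in Ta, 2.21 in NSb and 2.85 in C, and its level in F8 minus that in F4 was 2.64 in Ta, 2.45 in NSb and 2.77 in C. Only 0.0947% of probe sets (F6) and 0.0419% (F8) were as far from F4 in every line, on the smallest of the 3 values. Its F4 signals, from 2.5 to 3.17, lay under the array medians. The generations were grown, and apparently normalised, separately, so generation and batch cannot be told apart, and no test was made. The same comparison for CYP88A5 gave -1.03 in Ta, -0.78 in NSb and -0.82 in C for F8 minus F4, a distance that 4.63% of probe sets reached.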
